A study of Homo sapiens with 8 samples.

Results

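The mRNA levels of the 7 APOBEC3 cytidine deaminase genes (APOBEC3A, APOBEC3B, APOBEC3C, APOBEC3D, APOBEC3F, APOBEC3G and APOBEC3H) and of SAMHD1 were examined in uterine leiomyosarcoma (uLMS) cells. The members were taken by gene symbol, which gave 8 of the 60282 genes listed in the expression table. RNA sequencing was done on SK-UT-1, an established human uLMS cell line. The vehicle group held 4 libraries from cells given DMSO, and the TP-472 group held 4 libraries from cells given 5 µM TP-472, an inhibitor of the bromodomain proteins BRD9 and BRD7, for 48 h. The library totals were 32574716 to 36634184 estimated counts with vehicle and 36246466 to 38545695 with TP-472. Both groups are 1 cell line, and nothing in the labels says whether replicates were separate cultures, so p-values measure the spread between these libraries. In bulk RNA, fewer cells of a type and less RNA per cell cannot be told apart.

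APOBEC3 enzymes convert cytosine to uracil in single-stranded DNA. They act against retroviruses and retrotransposons, and APOBEC3A and APOBEC3B are also known as sources of cytosine mutations in tumour genomes. SAMHD1 removes the triphosphate from deoxynucleoside triphosphates (dNTPs), which lowers the supply of DNA building blocks, starves reverse transcription and detoxifies cytarabine triphosphate. Several of these genes respond to interferon, and many are best known from T cells and myeloid cells.

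The 7 APOBEC3 genes lie in a cluster on the plus strand of chromosome 22 between positions 38952741 and 39104067 (GRCh38, GENCODE annotation). SAMHD1 lies on the minus strand of chromosome 20 from 36889773 to 36951901. Each APOBEC3 protein holds a zinc-binding deaminase motif that starts with a histidine and a glutamate and ends with a pair of cysteines. APOBEC3B, APOBEC3D, APOBEC3F and APOBEC3G carry 2 such motifs, and APOBEC3A, APOBEC3C and APOBEC3H carry 1. The coding sequence of the motif nearest the C terminus is shown because the likeness between family members bears on how sequenced reads could be shared out among them. It was read from the GENCODE transcript of each gene with the longest complete coding sequence, 5′ to 3′ on the plus strand. The capitals mark the codons of the histidine, the glutamate and both cysteines.
APOBEC3B: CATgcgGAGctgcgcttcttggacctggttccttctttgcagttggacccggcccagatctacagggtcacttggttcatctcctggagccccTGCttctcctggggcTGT
APOBEC3C: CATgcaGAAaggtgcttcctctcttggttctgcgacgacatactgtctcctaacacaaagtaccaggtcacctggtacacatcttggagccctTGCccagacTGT
APOBEC3D: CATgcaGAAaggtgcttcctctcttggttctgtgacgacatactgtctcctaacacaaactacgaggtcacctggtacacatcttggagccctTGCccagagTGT
APOBEC3G: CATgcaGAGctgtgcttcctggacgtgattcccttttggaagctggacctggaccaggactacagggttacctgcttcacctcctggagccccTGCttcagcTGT
APOBEC3H: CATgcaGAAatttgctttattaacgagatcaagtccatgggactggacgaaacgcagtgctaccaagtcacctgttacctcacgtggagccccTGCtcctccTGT
The APOBEC3B stretch is in exon 6 (chr22:38991365-38991475), and the APOBEC3A stretch (chr22:38961420-38961530, exon 3) is identical to it over all 111 bases. The APOBEC3D stretch (chr22:39031715-39031819, exon 6) is likewise identical over its 105 bases to that of APOBEC3F (chr22:39052095-39052199, exon 6). The APOBEC3C stretch (chr22:39017787-39017891, exon 3) matches the APOBEC3D stretch at 101 of 105 bases (96.2%). APOBEC3G (chr22:39086312-39086416, exon 6) matches APOBEC3C at 57.1% of positions, and APOBEC3H (chr22:39101246-39101350, exon 3) matches APOBEC3G at 61.9%.

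Over whole transcripts, 47.7% of the 31-base words of APOBEC3B were also found in another member, mostly in APOBEC3A (29.6%). The share was 30.2% for APOBEC3F, 22.7% for APOBEC3D, 9.54% for APOBEC3G, 6.29% for APOBEC3C and 0.103% for SAMHD1, while APOBEC3H had none. Reads from the shared stretches were divided among the genes by the authors' estimation, which leaves the split between such genes uncertain. This holds for APOBEC3A and APOBEC3B, and for APOBEC3D and APOBEC3F (13.6% of APOBEC3D words in APOBEC3F). It also holds for APOBEC3F and APOBEC3G (13% of APOBEC3F words in APOBEC3G, and 7.73% the other way). How uncertain each split is was not tested. As annotated, APOBEC3A runs over APOBEC3B on the same strand for 10432 bases. The exons of both overlap by 348 bases, so part of their shared words can be the same genomic bases. The exons of APOBEC3D overlap by 2104 bases, and those of APOBEC3C by 17, with AL022318.4 on the same strand. This protein-coding gene had 0 counts in all 8 libraries, and its part in the APOBEC3D level was not tested.

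The label of the cells was compared with marker genes first. Of 6 smooth muscle markers, 5 passed the filter on low values (a counts-per-million value, CPM, above 1 in at least 4 libraries), and the one with the highest CPM was CALD1, a smooth muscle and cytoskeletal actin regulator, at a mean of 196 CPM. MYH11, the smooth muscle myosin heavy chain, did not pass. It had 0, 0, 0 and 1 counts with vehicle and 10, 8, 7 and 10 with TP-472, higher in each TP-472 library. The summed smooth muscle level was 362 to 426 CPM in the vehicle libraries and 322 to 325 CPM in the TP-472 libraries, and the part of this difference in the results was not tested. The markers differed among themselves. CALD1 was at a log2 fold change of −0.06 (edgeR adjusted p = 0.646). DES, the muscle intermediate filament desmin, fell from 3.25 ± 0.203 to 0.629 ± 0.169 CPM (SD, n = 4; −2.36, edgeR adjusted p = 0.000189). DES passed the filter through its vehicle libraries only (3.01 to 3.49 CPM, against 0.396 to 0.777 CPM with TP-472). It was not tested without vehicle replicate 3. TAGLN, an actin-binding protein, fell from 32.3 ± 3.4 to 20.3 ± 1.94 CPM (−0.67, edgeR adjusted p = 0.00397). ACTA2, smooth muscle actin, was at −0.55 (0.00426), short of the fold limit, and CNN1, calponin, at 0.13 (0.696). None of 5 lymphoid markers passed (summed level 0 to 0.0282 CPM, with 4 of the 5 at 0 in all 8 libraries, and PTPRC the highest at 0.00352 CPM). None of 6 myeloid markers passed either (1.16 to 1.79 CPM with vehicle and 2.03 to 2.93 CPM with TP-472, with ITGAM the highest at 0.966 CPM). The 4 endothelial markers summed to 0.0831 to 0.144 CPM with vehicle and 0.414 to 0.687 CPM with TP-472, with none passing (highest VWF, 0.148 CPM). Of the 4 epithelial markers 2 passed, with a sum of 8.84 to 11.7 CPM with vehicle and 16.9 to 20.7 CPM with TP-472. KRT18, a keratin, carried this sum and rose from 7.39 ± 0.871 to 15.6 ± 1.47 CPM (SD, n = 4; log2 fold change 1.08, edgeR adjusted p = 0.000726), whereas EPCAM, an epithelial adhesion molecule, was at a mean of 0.731 CPM with vehicle and 0.245 CPM with TP-472, lower in each TP-472 library, and CDH1, E-cadherin, at 0.417 and 0.415 CPM. The lymphoid markers were thus at or near 0 in all libraries, and the low myeloid and endothelial sums and the epithelial sum were higher in each TP-472 library than in any vehicle library. Their part in the results was not tested. CPM values of markers are not divided by gene length.

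The third vehicle library stood apart from the others. Its median Spearman correlation with its own group was 0.914, against 0.988 to 0.989 for the other vehicle libraries and 0.993 to 0.997 for the TP-472 libraries. It also held more counts from GC-rich genes, with a median deviation from the other vehicle libraries of 0.92 on the log2 scale in the most GC-rich of 4 equal gene bins and −0.69 in the least GC-rich. The fold changes, counts of calls, group separation, family sum and levels per length were therefore computed with and without it.

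With TP-472, levels of the tested APOBEC3 genes and SAMHD1 were lower. All 6 genes with enough counts to test (APOBEC3B, APOBEC3C, APOBEC3D, APOBEC3F, APOBEC3G and SAMHD1) had lower levels in every TP-472 library than in any vehicle library. Of all 14073 genes tested, 21.6% separated in that way (23.8% in the opposite way), and 28.7% did so without vehicle replicate 3, when the same 6 genes still separated. The 5 APOBEC3 genes fell with TP-472, by 43.6% to 61.9% of the mean vehicle level (32.7% to 43% without vehicle replicate 3, APOBEC3F going from 61.9% to 40.9%), at an adjusted p under 0.05 and a change of more than 1.5-fold (edgeR quasi-likelihood test, Benjamini-Hochberg adjustment over all genes). By this rule 26.9% of all genes tested changed, 14.9% falling and 12% rising, and 0 of the 6 members rose. SAMHD1 was 29.1% lower and passed the adjusted p, as did the 5 APOBEC3 genes, but missed the fold limit. By the adjusted p alone, 19.1% of all genes were lower and 17.2% higher. When vehicle replicate 3 was left out, 4 of the 6 genes fell by both limits (background 13.1%) and all 6 were lower by the adjusted p alone (background 28.5%). The median log2 fold change was −0.90 over the 6 genes and −0.026 over all genes.

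APOBEC3B, the mainly nuclear family member, was at 39.1, 25.6, 67.4 and 26.7 CPM in the 4 vehicle libraries and at 20.9, 16.8, 17.9 and 20 CPM in the TP-472 libraries. The vehicle libraries spread widely, with replicate 3 the highest at 2.21 times the mean of the others, while the TP-472 libraries lay close together below all of them. The mean went from 39.7 ± 19.5 to 18.9 ± 1.86 CPM (SD, n = 4), a log2 fold change of −1.07 (SE 0.295, edgeR adjusted p = 0.0217). Without vehicle replicate 3 it was −0.69 (SE 0.148, edgeR adjusted p = 0.00323).

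APOBEC3F, which like APOBEC3D and APOBEC3G can enter retroviral particles and is opposed by the HIV protein Vif, had the lowest level per exon length of the 5. Its CPM values were 14.4, 7.47, 32.5 and 8.66 CPM with vehicle and 5.9, 6.2, 5.97 and 6 CPM with TP-472. The TP-472 libraries were almost level, and vehicle replicates 1 and 3 stood above the other vehicle libraries. The mean went from 15.8 ± 11.6 to 6.02 ± 0.129 CPM (SD, n = 4). The log2 fold change was −1.39 (SE 0.426, edgeR adjusted p = 0.0325), and −0.77 (SE 0.201, edgeR adjusted p = 0.00917) without vehicle replicate 3. Its range over the single libraries left out, −1.63 to −0.77, was the widest of the 6 genes.

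APOBEC3D, a gene with paired deaminase domains next to APOBEC3F, was at 13, 15, 27.6 and 16.9 CPM with vehicle and 10.1, 11.2, 10 and 8.88 CPM with TP-472. The groups did not overlap, but the gap between the lowest vehicle and the highest TP-472 library was small. The mean went from 18.1 ± 6.5 to 10.1 ± 0.945 CPM (SD, n = 4), a log2 fold change of −0.85 (SE 0.229, edgeR adjusted p = 0.0203). Without vehicle replicate 3 the change was −0.58 (SE 0.112, edgeR adjusted p = 0.0019), just short of the fold limit of 0.585 on the log2 scale.

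APOBEC3C, a single-domain enzyme with activity against LINE-1 retrotransposons, was at 45.7, 50.1, 84.8 and 50.6 CPM with vehicle and 36.5, 31, 34 and 28.9 CPM with TP-472. The vehicle libraries other than replicate 3 lay close together, and replicate 3 lay above them. The mean went from 57.8 ± 18.1 to 32.6 ± 3.35 CPM (SD, n = 4). The log2 fold change was −0.83 (SE 0.201, edgeR adjusted p = 0.0131), and −0.59 (SE 0.0861, edgeR adjusted p = 0.00036) without vehicle replicate 3, just past the fold limit.

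APOBEC3G, the family member best known for restricting HIV, gave the smallest adjusted p of the family. It was at 36.2, 38.4, 52.5 and 38 CPM with vehicle and 22.5, 21.8, 23.7 and 17.5 CPM with TP-472. The groups were far apart relative to their spread, and the third vehicle library exceeded the mean of the others by 1.4 times, the least of the 5 genes. The mean went from 41.3 ± 7.52 to 21.4 ± 2.72 CPM (SD, n = 4), a log2 fold change of −0.95 (SE 0.156, edgeR adjusted p = 0.00234). Without vehicle replicate 3 it was −0.82 (SE 0.0989, edgeR adjusted p = 0.000116).

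APOBEC3A and APOBEC3H were at or near 0 and were not tested. APOBEC3A, a strong mutator of single-stranded DNA best known from myeloid cells, had 0, 1, 2.48 and 0 estimated counts with vehicle and 0, 0, 0 and 1.01 with TP-472. APOBEC3H, a single-domain gene that differs between people in protein stability, had no counts with vehicle and 0, 0, 1 and 1 with TP-472. Both groups stayed at or under 3 counts per library, so no fold change is given.

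SAMHD1, the dNTP hydrolase, was at 150, 154, 127 and 153 CPM with vehicle and at 103, 102, 109 and 101 CPM with TP-472. All TP-472 libraries were lower than all vehicle libraries, and here vehicle replicate 3 was the lowest of its group, opposite to its place for the APOBEC3 genes. The mean went from 146 ± 12.9 to 104 ± 3.45 CPM (SD, n = 4), a log2 fold change of −0.50 (SE 0.0987, edgeR adjusted p = 0.0056). Without vehicle replicate 3 it was −0.56 (SE 0.0534, edgeR adjusted p = 2.84e-05), which still missed the fold limit. A 2-sided exact permutation test of the CPM gave p = 0.0286 for each of the 6 genes, the smallest value that 4 against 4 libraries allow. Any gene whose groups do not overlap gets this value, so it restates the separation given above. Of all genes tested, 21.6% separated as lower and 23.8% as higher.

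**Figure D1:**
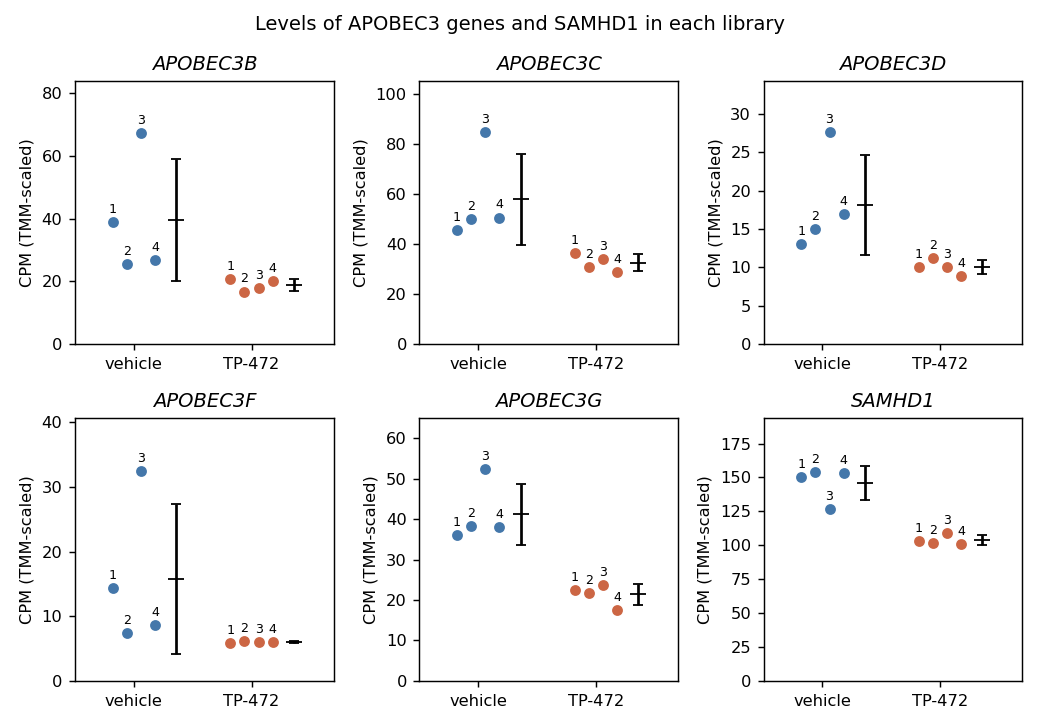
CPM of each tested member in each library, on a linear axis from 0, with points for single libraries numbered by replicate and bars for the group mean ± SD. No TP-472 library reaches the lowest vehicle library, and replicate 3 is the highest vehicle library for the 5 APOBEC3 genes but the lowest for SAMHD1 (127 CPM).

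The place of vehicle replicate 3 was set beside GC content. For APOBEC3F (52.2% GC over its longest transcript) it exceeded the other vehicle libraries by 1.73 on the log2 scale, while the median of genes within 1 percentage point of that GC content was 0.31, and 98.7% of those genes lay below APOBEC3F. The same share was 94.1% for APOBEC3B, 87% for APOBEC3C and 86.3% for APOBEC3D. APOBEC3G (0.48 against a median of 0.43, 53.7%) and SAMHD1 (−0.26 against −0.30, 53.8%) lay close to the middle of genes of like GC content. With the GC trend removed from each library, the 5 APOBEC3 genes fell by 0.82 to 1.31 on the log2 scale, and SAMHD1 fell by 0.63 (edgeR adjusted p = 5.05e-05), past the fold limit, beside 15.7% of all genes that fell in that fit. With the trend removed and vehicle replicate 3 also left out, an analysis chosen after seeing the data, all 6 genes fell past both limits, SAMHD1 by 0.61 and APOBEC3G by 0.83, beside 12.8% of all genes.

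**Figure D2:**
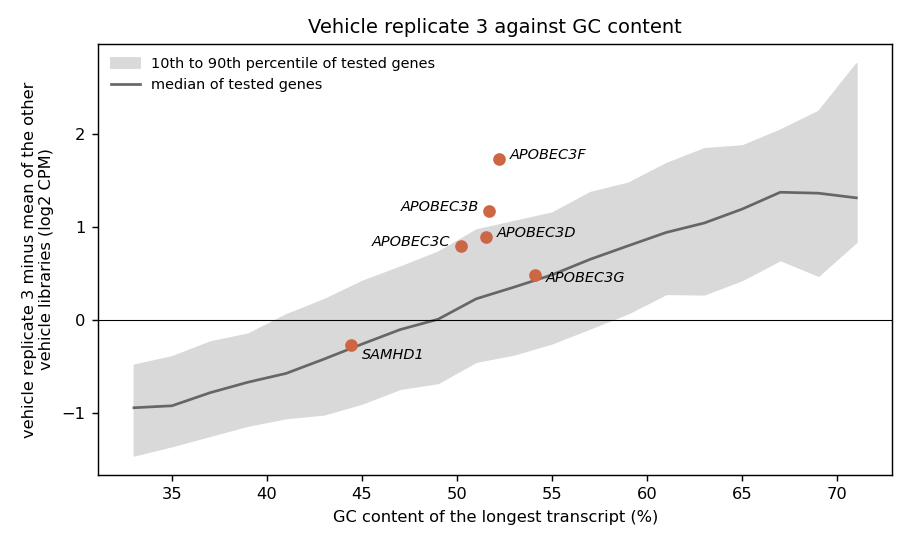
Log2 difference of vehicle replicate 3 from the other vehicle libraries against the GC content of the gene's longest transcript, where the line is the median of all tested genes in GC bins, the band their 10th to 90th percentile, and points are the members. APOBEC3F (1.73) and APOBEC3B (1.17) lie above the band, and SAMHD1 (−0.26) lies on the median line.

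**Figure D3:**
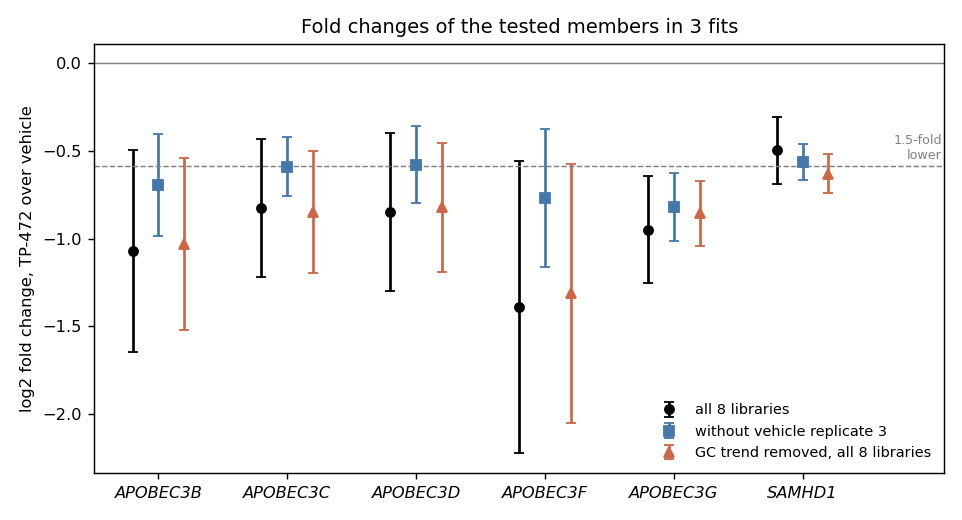
Log2 fold changes (TP-472 over vehicle) of the 6 tested genes with 95% confidence intervals in 3 fits: all libraries, without vehicle replicate 3, and with the GC trend removed. All values lie under 0, from −0.50 for SAMHD1 to −1.39 for APOBEC3F with all libraries, and the dashed line marks a 1.5-fold decrease.

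The calls of APOBEC3B, APOBEC3D and APOBEC3F were lost in some alternative analyses. APOBEC3C and APOBEC3G were called in all 19 alternative analyses run (other scalings, filters and tools and each library left out), the test against 1.5-fold apart. APOBEC3B missed the adjusted p limit when any 1 TP-472 library was left out (0.0503 to 0.0685, edgeR; log2 fold changes −1.12 to −1.01) but not when any 1 vehicle library was, and APOBEC3D when TP-472 replicate 1, 3 or 4 was left out (0.0548 to 0.0619; −0.85 to −0.78). APOBEC3F missed it without vehicle replicate 1 (0.0613) or any 1 TP-472 library (0.0787 to 0.0837; −1.39 to −1.38). With all 8 libraries it missed the limit under limma-voom (0.0661; −1.13) and with a replicate block (0.064; −1.13). When the change itself was tested against 1.5-fold (edgeR's glmTreat), 0 of the 6 genes passed with all 8 libraries, with APOBEC3G the nearest (adjusted p = 0.063), and 4.22% of all genes passed as lower. At an unadjusted p under 0.05, 5 of the 6 genes passed that test, beside 18.3% of all genes in either direction.

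The APOBEC3 family as a whole was at 148, 137, 265 and 141 CPM in the vehicle libraries and at 95.9, 87.1, 91.6 and 81.2 CPM in the TP-472 libraries. The sum was lower in each TP-472 library, and vehicle replicate 3 was far above the rest. The mean sum went from 173 ± 61.6 to 88.9 ± 6.3 CPM (SD, n = 4), a ratio of 0.515. Without vehicle replicate 3 the vehicle mean was 142 ± 6 CPM and the ratio 0.627.

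Levels of the members were compared with each other after division by exon length in kilobases (CPM per kb). This length joins all annotated exons of a gene, from 1896 bases for APOBEC3B to 11261 for SAMHD1 among the tested members, with 5437 for APOBEC3G. The lengths of the transcripts present in these cells were not used, so the order depends on the annotation. Before division SAMHD1 was the highest with vehicle, at 146 CPM against 57.8 CPM for APOBEC3C. With vehicle the order of these levels was APOBEC3B (20.9 ± 10.3 CPM per kb, SD, n = 4), APOBEC3C (20.5 ± 6.44), SAMHD1 (13 ± 1.14), APOBEC3G (7.59 ± 1.38), APOBEC3D (7.16 ± 2.57) and APOBEC3F (4.87 ± 3.57). APOBEC3B and APOBEC3C overlapped, as did APOBEC3G, APOBEC3D and APOBEC3F, and the lowest APOBEC3B library (13.5) lay inside the SAMHD1 range (11.3 to 13.7). When vehicle replicate 3 was left out, APOBEC3C (17.3 ± 0.959, SD, n = 3) stood before APOBEC3B (16.1 ± 3.96), still with overlap, and the rest kept their order (SAMHD1 13.6 ± 0.212, APOBEC3G 6.9 ± 0.213, APOBEC3D 5.92 ± 0.776 and APOBEC3F 3.14 ± 1.15), with APOBEC3F then below APOBEC3D in each library. With TP-472 the order was APOBEC3C (11.6 ± 1.19), APOBEC3B (9.97 ± 0.982), SAMHD1 (9.21 ± 0.306), APOBEC3D (3.98 ± 0.374), APOBEC3G (3.93 ± 0.5) and APOBEC3F (1.86 ± 0.0399). Here APOBEC3F lay below all others in each library, whereas neighbours among the first 3, and APOBEC3D and APOBEC3G, overlapped.

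The makeup of the family's summed level per length was much alike in both groups. APOBEC3C made up 34.3 ± 3.93% with vehicle and 36.9 ± 1.57% with TP-472 (SD, n = 4), and APOBEC3B 33.5 ± 5.18% and 31.9 ± 3%. The shares of APOBEC3G were 13 ± 2.3% and 12.5 ± 1.26%, those of APOBEC3D 11.9 ± 1.8% and 12.7 ± 1.31%, and those of APOBEC3F 7.32 ± 2.56% and 5.95 ± 0.456%. Each of these pairs differed by less than the SD of the vehicle libraries. With vehicle replicate 3 left out, APOBEC3G made up 14.1 ± 1.35% with vehicle (SD, n = 3), a difference slightly over that SD. The size of each share depends on the exon length used. From counts not divided by length, APOBEC3G made up 24.8% with vehicle and 24% with TP-472.

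The genes on either side of both loci were then examined. CBX7, a Polycomb protein that binds methylated histone H3 and lies next to APOBEC3H, was at 10.8, 8.88, 22.6 and 8.63 CPM with vehicle and at 4.01, 3.83, 3.05 and 3.8 CPM with TP-472. The groups did not overlap, and CBX7 fell from 12.7 ± 6.68 to 3.68 ± 0.426 CPM (SD, n = 4), a log2 fold change of −1.79 (SE 0.319, edgeR adjusted p = 0.00339). On the other side, CBX6, another Polycomb protein, was at 99.1, 92.1, 181 and 101 CPM with vehicle and 110, 98.3, 94.9 and 97.5 CPM with TP-472. These groups overlapped (log2 fold change −0.24, edgeR adjusted p = 0.391), and the sign turned without vehicle replicate 3. NPTXR, the neuronal pentraxin receptor beyond CBX6, fell by 1.74 on the log2 scale (SE 0.45, edgeR adjusted p = 0.0169), with a log2 fold change of −1.11 (edgeR adjusted p = 0.00301) without vehicle replicate 3. PDGFB, a growth factor gene beyond CBX7, did not pass the filter. The APOBEC3 cluster thus lay between a neighbour that fell and one that did not pass the test.

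Beside SAMHD1, SOGA1 fell from 164 ± 135 to 43.5 ± 6.99 CPM (SD, n = 4; log2 fold change −1.91, SE 0.491, edgeR adjusted p = 0.0165). Its vehicle libraries ranged from 71.5 CPM to 359 CPM in replicate 3, and without that library the change was −1.19 (edgeR adjusted p = 0.00277). RBL1, which encodes the retinoblastoma-like protein p107, had a log2 fold change of −0.23 (edgeR adjusted p = 0.165). MROH8 did not pass the filter. TLDC2, which runs antisense to SAMHD1 and shares 1159 exon bases with it, did not pass either, at 0 to 6 counts per library, so few counts were listed for the opposite strand.

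**Figure D4:**
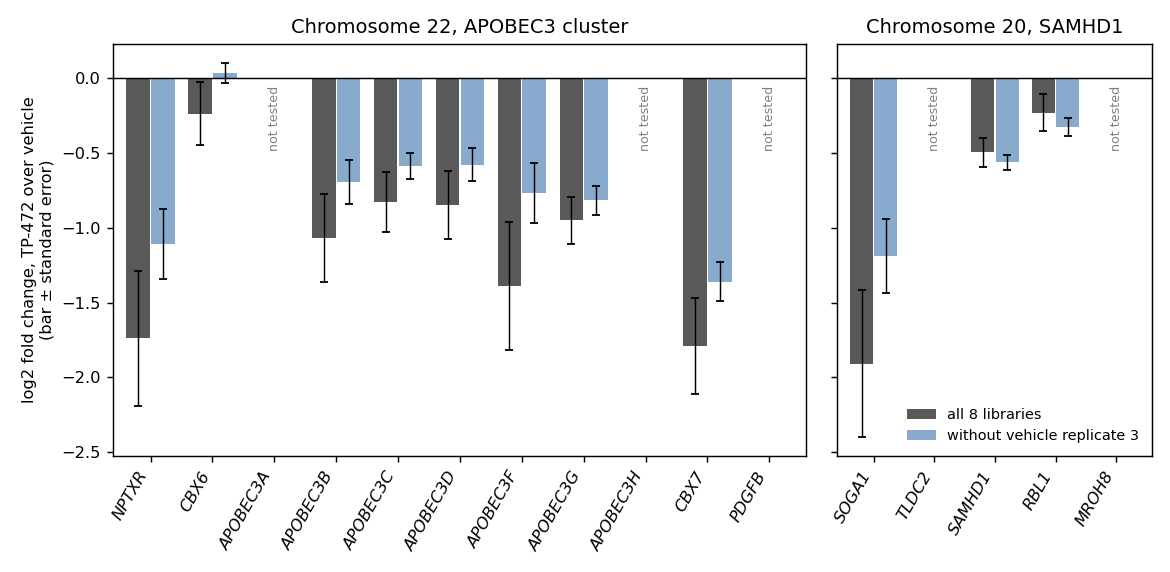
Log2 fold changes (TP-472 over vehicle) of the members and of the nearest protein-coding genes on each side, in genome order, with bars for the fit on all libraries and the fit without vehicle replicate 3 and whiskers for the standard error. CBX7, NPTXR and SOGA1 have values past −1 in both fits, and CBX6 is at −0.24 and turns to just above 0 without replicate 3.

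The start region of SAMHD1, a known target of DNA methylation in leukaemia cells, is shown for its CG content, and methylation itself was not measured here. It spans 300 bases around the start (chr20:36951659-36951958, minus strand, RefSeq, GRCh38.p14), and the capitals mark its CG dinucleotides. Of the 8 genes, SAMHD1 and APOBEC3H had such a RefSeq sequence. APOBEC3A, APOBEC3B, APOBEC3C, APOBEC3D, APOBEC3F and APOBEC3G were not matched.
SAMHD1: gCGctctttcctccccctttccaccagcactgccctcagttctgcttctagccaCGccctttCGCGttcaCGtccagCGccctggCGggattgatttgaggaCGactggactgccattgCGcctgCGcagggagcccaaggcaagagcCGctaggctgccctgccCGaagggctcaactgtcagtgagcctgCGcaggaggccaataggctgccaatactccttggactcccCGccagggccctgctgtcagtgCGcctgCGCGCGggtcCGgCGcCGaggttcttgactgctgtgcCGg
It holds 22 CG dinucleotides, against a median of 14 over windows of this length, and 62.3% of the windows hold fewer. The interferon-type motifs GAAACT and GAAA followed after any 2 bases by GAAA, the NF-κB-type motif GGG followed after any 5 bases by CC, the E2F-type motifs TTTCGCGC and TTTGGCGC and the cell cycle homology motif TTTGAA were searched on both strands, and none is in this window. The share of all windows that held them was 14.8%, 3.57%, 58.7%, 0.515%, 0.652% and 15.2%, in that order. The APOBEC3H window (chr22:39096994-39097293, plus strand) holds GAAACT and the NF-κB-type motif.

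Other gene groups tied to these enzymes were described by counts from lists of known function, beside the background of 14.9% of genes falling and 12% rising and a median of −0.026 for all genes. Among the transcription factors of the interferon response, 4 of 6 fell (median −1.05): IRF9 (−1.57, edgeR adjusted p = 0.000208) and STAT2 (−1.41, 8.05e-05), which are partners in an interferon-activated transcription complex, and also IRF7 (−1.5, 0.00136) and IRF2 (−0.69, 0.00667). IRF1 was at −0.36 (adjusted p = 0.0511) and IRF3 at −0.53 (adjusted p = 0.069). With vehicle replicate 3 left out, 3 of the 6 fell, IRF2 at −0.58 missing the fold limit.

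Among 15 tested factors that restrict retroviruses or silence retroelements, 4 fell and 0 rose (median −0.27). They were MX2, a blocker of HIV nuclear import (log2 fold change −3.13, edgeR adjusted p = 3.97e-05), TRIM22, an interferon-induced antiviral factor (−2.89, 1.74e-05), BST2, which tethers budding virions (−2.27, 0.00014), and MOV10, an RNA helicase acting on LINE-1 (−1.24, 0.00048). The count was again 4 without vehicle replicate 3. Among 7 genes of Aicardi-Goutières syndrome, an inherited interferon disorder for which SAMHD1 is also a disease gene, 3 fell (median −0.26). IFIH1, the sensor of long double-stranded RNA, went from 166 ± 15.1 to 39.5 ± 1.98 CPM (SD, n = 4; log2 fold change −2.07, edgeR adjusted p = 1.74e-05). ADAR, which converts adenosine to inosine in double-stranded RNA, went from 564 ± 50.8 to 347 ± 11.5 CPM (−0.70, 0.00148). TREX1, the cytosolic DNA exonuclease, was the third (−0.63, 0.0298) and was not called without vehicle replicate 3. The remaining 4, the RNase H2 subunit genes RNASEH2A (−0.15, 0.391), RNASEH2B (−0.26, 0.103) and RNASEH2C (0.31, 0.141) and the histone RNA processing gene LSM11 (0.33, 0.0785), did not pass. Of the other deaminases, ADAR and ADARB1 could be tested, and ADARB1 was at −0.23 (edgeR adjusted p = 0.463). APOBEC1, APOBEC2, APOBEC4 and ADARB2 did not pass the filter.

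Uracil left in DNA by these enzymes is cut out by base excision repair. Of 15 tested genes of uracil and abasic site repair, 1 fell, the scaffold protein XRCC1 (log2 fold change −0.69, edgeR adjusted p = 0.0237), and 0 rose (edgeR, median 0.06). XRCC1 was at −0.47 without vehicle replicate 3 and did not pass the fold limit. This count went from 0 (without vehicle replicate 3 or any 1 TP-472 library, or with the GC trend removed) to 3 (without vehicle replicate 4). Of 19 tested dNTP metabolism genes, 1 fell and 2 rose (median 0.04). TK2, the mitochondrial thymidine kinase, went from 34.4 ± 3.7 to 18.6 ± 0.565 CPM (SD, n = 4; −0.89, edgeR adjusted p = 0.000696). DCTPP1, a pyrophosphatase that clears modified dCTP, rose from 28.3 ± 3.08 to 57.3 ± 4.63 CPM (1.01, 0.000446), and the nucleoside diphosphate kinase NME1 rose from 104 ± 21 to 185 ± 22 CPM (0.82, 0.0053). The same 3 calls were made without vehicle replicate 3.

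Of 7 tested regulators and partners of SAMHD1 protein, 0 passed both limits with all libraries (edgeR, median 0.18). In the fit without vehicle replicate 3, 2 fell, CDK1, the cell cycle kinase that phosphorylates SAMHD1 (log2 fold change −0.59, edgeR adjusted p = 0.000392), and MRE11, the nuclease that works with SAMHD1 at stalled forks (−0.63, 6.71e-05). With all libraries CDK1 was at −0.36 (adjusted p = 0.314) and MRE11 at −0.51 (adjusted p = 0.0217). The other 5 were then at −0.31 (CDK2), 0.26 (CCNA2), 0.41 (PPP2R2A), 0.44 (RBBP8) and 0.18 (DCAF1) on the log2 scale, and RBBP8, a DNA end resection factor, like MRE11 passed the adjusted p (edgeR, 0.017) but not the fold limit. Of 14 tested transcription regulators of APOBEC3B, 2 fell and 1 rose (median −0.07). RBL2, a pocket protein of the DREAM repressor complex, fell by 1.06 on the log2 scale (edgeR adjusted p = 0.000299), and PRKCA, a protein kinase C upstream of NF-κB, fell by 0.927 (0.00879). E2F6, a repressor of the E2F family, rose by 0.69 (0.0239) and was at 0.51, short of the fold limit, without vehicle replicate 3. The members named here include repressors as well as activators.

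**Figure D5:**
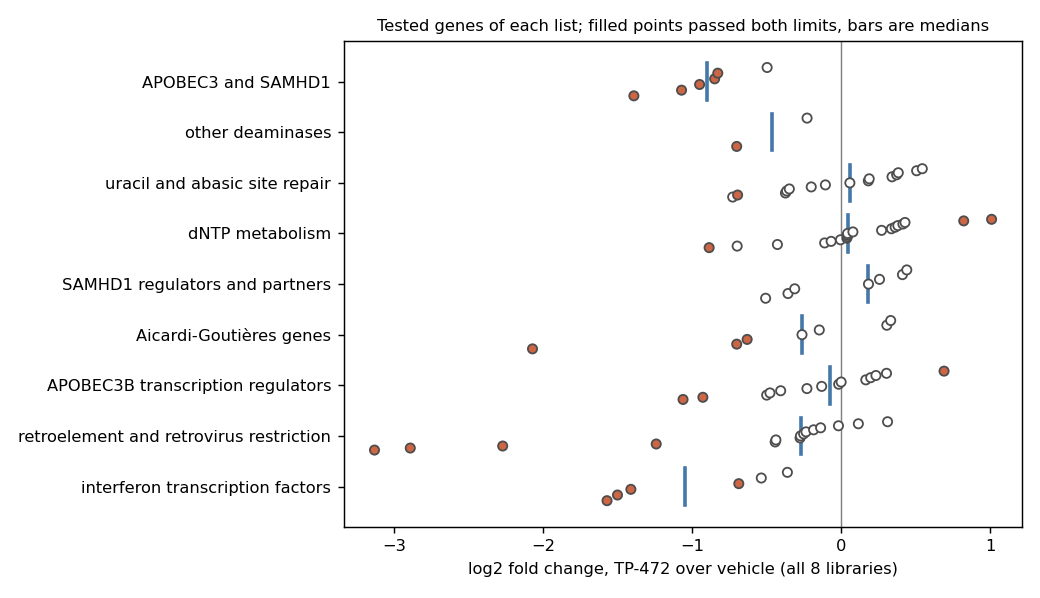
Log2 fold changes (TP-472 over vehicle) of the tested members and of the tested genes in 8 lists of related function, with 1 point per gene, filled where the gene passed both limits, and a line at each list's median. The interferon transcription factors have the lowest median of these lists (−1.05), and the dNTP metabolism and uracil repair lists lie around 0 (0.04 and 0.06).

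The genes whose levels followed SAMHD1 most closely over the 8 libraries were MEIS1, a homeobox factor (Pearson r of log2 CPM 0.998), WDR72 (0.998) and HERC5, the ligase of the interferon-induced modifier ISG15 (0.997). For APOBEC3C they were SNX15, a sorting nexin (0.997), KIF3C, a kinesin (0.995), and EHBP1L1 (0.995). The libraries share a treatment contrast and vehicle replicate 3, which was high for APOBEC3C and low for SAMHD1. That library was not left out here, so the coefficients describe likeness of pattern. HERC5 went from a mean of 52.4 to 29.8 CPM (log2 fold change −0.81, edgeR adjusted p = 0.00192), and EHBP1L1 from 69.6 to 30.5 CPM (−1.19, 0.00897).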

How the data were processed

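RNA was sequenced from 4 vehicle and 4 TP-472 libraries of SK-UT-1 cells. The authors estimated counts with Salmon 1.4.0 (GRCh38 per the labels) and summed transcripts to genes, and the deposited table holds these estimated counts, not normalized, for 60282 genes. No column of another sample was present. The labels and the study's methods differ on the library kit and on whether strand was kept. Estimated counts were rounded to whole numbers. Genes above 1 CPM in at least 4 libraries (14073) were fitted with edgeR 4.0.16 (TMM scaling, quasi-likelihood F test, R 4.3.3) on the group alone, with Benjamini-Hochberg adjustment, and called at an adjusted p under 0.05 and over 1.5-fold. CPM values were TMM-scaled. On data simulated for this comparison over 14073 genes, 53 of 100 genes changed 2-fold, 95 of 100 changed 4-fold and 5 of 13873 unchanged genes were called. The simulated counts were drawn gene by gene, with no library set apart and no GC trend. These rates therefore need not hold for the real libraries, where vehicle replicate 3 deviates. Totals of 32574716 to 38545695 counts set the depth.

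The members and lists were chosen with earlier results of these data known. Some genes of the lists are not reported here and were left out of the list counts and medians. Named were all members, any tested gene of lists of up to 10 tested genes, the 4 called genes with the largest changes in each direction in longer lists, the 2 nearest protein-coding genes on each side of both loci, and the 3 genes most like SAMHD1 and APOBEC3C. Alternatives were other scalings (RLE, total count, upper quartile), filterByExpr or no filter, DESeq2 1.42.0, limma-voom (limma 3.58.1), robust estimation, unrounded counts, a replicate block, a GC trend removed, a test against 1.5-fold, and each library left out. Gene positions, exon lengths, coding sequences and GC content came from a GENCODE annotation of GRCh38 given for this work, and 99.3% of tested genes had a GC value.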

Additional observations from a re-analysis of the deposited data

Results flagged for a closer look

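In 20 of 114 groups of 4 libraries examined (the CPM of each tested gene for which a value is given above, and the APOBEC3 sum, in each group), 1 library lay far from the other 3 by Dixon's test at the 95% level, whose ratio is the gap to the nearest library divided by the range of the group. Chance flags about 1 in 20 groups. Vehicle replicate 3 was the library in 15 of them: APOBEC3C (ratio 0.875), APOBEC3G (0.867), SAMHD1 (0.833), the APOBEC3 sum (0.908), CBX6 (0.9), CBX7 (0.848), RBL1 (0.891), TREX1 (0.924), RNASEH2C (0.832), MRE11 (0.847), XRCC1 (0.877), IRF3 (0.909), SNX15 (0.903), KIF3C (0.917) and EHBP1L1 (0.914). APOBEC3B, APOBEC3D and APOBEC3F did not reach the limit, although replicate 3 was their highest vehicle library. Vehicle replicate 1 stood apart for PPP2R2A (0.903) and TAGLN (0.896). Among the TP-472 libraries, replicate 4 stood apart for TK2 (0.944), and replicate 2 for IFIH1 (0.897) and IRF7 (0.9).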

How the results depend on the processing

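No change of direction occurred for the 6 tested members in the 19 alternative analyses or in the test against 1.5-fold. The 3 other scalings kept all 5 APOBEC3 calls (APOBEC3B −1.12 to −1.08), beside 14.9% to 15.6% of all genes called lower. The median of all genes stayed between −0.0563 and −0.026. Of 3789 genes changed (2096 lower, 1693 higher), the test against 1.5-fold kept 1123 (594 lower, 529 higher) and 0 of 5 members, by its stricter construction. DESeq2 gave 2880 lower (8.68% of the genes in that fit) and 2666 higher, and 5 members, all of them lower. Leaving out 1 library gave 2486 to 4110 genes changed, 1321 to 2325 lower (9.53% to 16.7% of the genes tested), and 2 to 5 members. Both lowest gene counts came without TP-472 replicate 3 (1345 lower without replicate 2), and 2 members were called without TP-472 replicate 1, 3 or 4 and 3 without replicate 2. From counts not divided by length, APOBEC3B made up 22.4% of the family with vehicle and 21.3% with TP-472, APOBEC3G 24.8% and 24%, and with TP-472 APOBEC3D 11.3% and APOBEC3F 6.79%. Calls in the uracil repair list ranged from 0 to 3 (1 in the reported fit, 2 with DESeq2, filterByExpr or no filter), in the SAMHD1 regulators from 0 to 2, and the APOBEC3B regulators went from 3 to 5 with the GC trend removed. Same-numbered libraries did not deviate together (correlations −0.0554, 0.116, −0.171 and −0.177, 1 of 8 libraries correlating best with its own number), so the numbers were not taken as pairs. With a replicate block 3055 genes were called, 1555 of them lower (11% of the genes tested). The 4 members called in that fit were all lower (APOBEC3F adjusted p = 0.064). Limits: 1 cell line, 1 dose and time, 4 libraries a group, 1 of them apart, mRNA without protein or enzyme activity, and APOBEC3 reads shared among relatives. At this depth APOBEC3A and APOBEC3H cannot be compared.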
